A study of Mus musculus with 36 samples.

Results

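The mRNAs of 10 non-catalytic subunits of the MLL/COMPASS complexes were followed: Wdr5, Ash2l, Rbbp5, Dpy30, Men1, Psip1, Ncoa6, Paxip1, Kdm6a and Cxxc1. They were taken by name and are 10 of the 51734 gene symbols in the count table. The study sequenced mRNA of E14 mouse embryonic stem cells (ESC) and of neural precursor cells (NPC) derived from them, with or without the catalytic activity of MLL3 and MLL4. The 18 libraries used here form 6 groups of 3: each stage in a wild-type line (WT), an MLL3/4 dCD line and an MLL2 dTAG line. In the design text of the series the first edit concerns Mll3/4 catalytic activity, and dCD is written below for that line. In the MLL2 dTAG line, written MLL2dTAG below, MLL2 carries a tag by which the small molecule dTAG-13 leads a protein to degradation. All 18 libraries, those of WT included, are labelled as treated with dTAG-13, so no group was free of the compound. NPC also received RA, the abbreviation in the labels. In NPC differentiation dTAG-13 was given at 2 uM from day 1, with harvest on day 4, while for ESC the sources used here give neither dose nor duration. The cells were kept in DMEM with KnockOut serum replacement and LIF. Each genotype is a line of its own, so the edit and other differences between the lines cannot be told apart. The labels do not say whether the 3 replicates were separate cultures, and p-values measure only the spread between these libraries, which may be technical.

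COMPASS complexes methylate lysine 4 of histone H3, a mark found at promoters and enhancers of active genes. The catalytic subunits are MLL1 to MLL4 (genes Kmt2a to Kmt2d), SETD1A and SETD1B, which have little activity alone. All of them bind a shared core of WDR5, RBBP5, ASH2L and DPY30, and each kind of complex adds partners of its own. Menin and PSIP1 go with MLL1 and MLL2. NCOA6, PAXIP1 and KDM6A, which is a demethylase of histone H3 lysine 27, go with MLL3 and MLL4. CXXC1, which binds unmethylated CpG, goes with the SETD1 enzymes. In ESC the core is known to support self-renewal, and MLL3/4 with KDM6A act at enhancers during differentiation.

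All 10 subunits passed the filter on low counts, as did 20511 of the symbols. Libraries held 19.4 to 46.04 M counts, where 1 M is 1e+06. Within groups, counts of replicate pairs varied 2.19 to 10.5 times as much as sampling alone gives (chi-square per degree of freedom), so no pair was a library deposited again. ESC WT replicate 2 stood apart, with 10.5 against replicate 1 and 8.38 against replicate 3, and results that turn on it are given without it too. Kmt2b, the gene of MLL2, had 212 ± 19.4 (SD, n = 3), 203 ± 5.10 and 207 ± 6.49 CPM (counts per 1e+06 of the scaled library total) in ESC of WT, dCD and MLL2dTAG. Its transcript cannot check a protein's degradation, nor can the level of Kmt2c and Kmt2d transcripts check a catalytic change. The summed level of 8 pluripotency markers, Pou5f1 and Nanog among them, was 3307 to 3609 CPM in ESC WT and 46.5 to 47.3 in NPC WT. In ESC it was 3126 to 3282 CPM in dCD, with 2 of the 8 higher than WT and 4 lower (edgeR, adjusted). ESC MLL2dTAG had 3890 to 4103 CPM, with 6 higher and 2 lower. In NPC the sum was 70.0 to 75.2 CPM in dCD and 195 to 202 in MLL2dTAG. Against NPC WT, 2 of the 8 were higher in dCD, Sox2 (28.3 CPM beside 14.4) and Klf4 (26.6 beside 14.03), and 1 was lower (edgeR, adjusted), with a median log2 change of 0.03, while in MLL2dTAG all 8 were higher. Summed over 8 neural precursor markers, the level was 104 to 107 CPM in ESC WT and 194 to 202 in NPC WT, with 411 to 450 in NPC dCD and 261 to 265 in NPC MLL2dTAG. Of these, 6 were higher than WT in NPC dCD and 2 were not called. In NPC MLL2dTAG 4 were higher, Nes at 156 CPM beside 91.2 among them, and 2 were lower, Pax6 (26.4 beside 38.9) and Neurog2 (1.87 beside 4.31). ESC dCD summed to 129 to 134 CPM over the neural list, with 5 of the 8 higher than WT and 3 not called. ESC MLL2dTAG had 111 to 119 CPM, with 3 higher and 1 lower. Neurog2 was at 0 in all ESC libraries of WT and MLL2dTAG. Endoderm markers (6 genes) summed to 210 to 219 CPM in NPC WT, 182 to 188 in NPC dCD and 529 to 546 in NPC MLL2dTAG. In ESC they summed to 15.6 to 17.7, 11.9 to 12.7 and 30.7 to 34.4. Mesenchyme or feeder markers (7 genes) summed to 464 to 579, 739 to 827 and 840 to 896 CPM in ESC of WT, dCD and MLL2dTAG, with Tcf21 at 0 in the first and the last. In NPC the sums were 715 to 735, 900 to 986 and 1034 to 1048. The last sum rests on part of the list: against NPC WT, 3 genes were higher in MLL2dTAG, Col3a1 at 716 CPM beside 295 among them, and 4 were lower, such as Col1a2 at 21.3 beside 153, with a median log2 change of -0.64. In NPC dCD 5 were higher and 1 lower. Beside these marker counts, 48.3% and 56.9% of all genes passed in ESC of dCD and MLL2dTAG (edgeR, adjusted). In NPC 53.5% and 61.7% passed, and the shares by direction are given below. The marker levels move with stage and line, and their part in the results below was not tested.

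Levels of different genes were set side by side as CPM per kilobase of the longest annotated transcript. On this length, the shared core and Psip1 stood above the other partners in ESC WT. Dpy30 was highest at 174 ± 16.5 CPM per kilobase (SD, n = 3), followed by Wdr5 at 122 ± 5.73 and Ash2l at 118 ± 2.43, whose libraries overlapped. Psip1 had 98.8 ± 2.14 and Rbbp5 42.1 ± 0.677 CPM per kilobase. Paxip1, Cxxc1, Kdm6a and Men1 lay between 21.5 and 19.1 with libraries that overlapped from one to the next, and Ncoa6 was lowest at 13.8 ± 0.802. In NPC WT the order was another: Psip1 led with 91.8 ± 1.00, ahead of Dpy30 at 66.2 ± 1.58, Ash2l at 53.0 ± 1.199 and Wdr5 at 41.6 ± 1.43. Men1 with 37.4 ± 1.36 and Cxxc1 with 28.7 ± 1.60 then stood above Ncoa6 at 25.1 ± 0.942 and Rbbp5 at 24.4 ± 0.695, whose libraries overlapped. Kdm6a at 18.02 ± 0.189 and Paxip1 at 14.3 ± 0.114 CPM per kilobase closed the order. The order depends on the length used: with the median transcript length Wdr5 instead of Dpy30 was highest in ESC WT, at 386 CPM per kilobase, while Psip1 was again highest in NPC WT, at 297. On the median length Paxip1, at 171, stood above Rbbp5 at 72.2 in ESC WT, and in NPC WT it was the third at 114 and no longer the last.

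**Figure D1:**
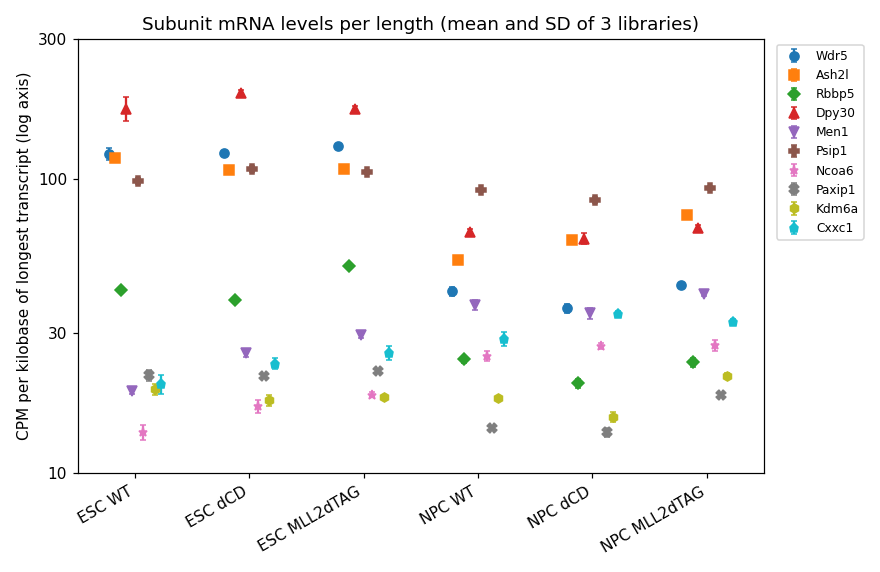
Level of the 10 subunit mRNAs per length in the 6 groups (x axis), as CPM per kilobase of the longest transcript on a log axis, with points for means and bars for SD of 3 libraries. Dpy30 is highest in ESC WT at 174, and Psip1 in NPC WT at 91.8.

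The 250 bases upstream of the start of a core subunit pair, of Men1 and of Kdm6a are shown because in WT the first pair fell most and Men1 rose most from ESC to NPC, and because Kdm6a differed most between the dCD and MLL2dTAG lines in NPC (0.46 on the log2 scale). They are RefSeq windows on GRCm38.p6, 5′ to 3′ on the gene's strand, with searched motifs in capitals, and where RefSeq lists several starts (4 for Dpy30, 3 for Men1) the one nearest to the GENCODE M21 5′ end was taken. Wdr5 lies at chr2:27515157-27536535 on the plus strand (GENCODE M21) and its window is chr2:27514897-27515146. Dpy30 is at chr17:74299474-74323944 on the minus strand, with the window chr17:74323945-74324194. Men1 is at chr19:6334979-6340891 on the plus strand, with the window chr19:6334729-6334978. Kdm6a is at chrX:18162575-18279936 on the plus strand, with the window chrX:18162325-18162574.
Wdr5: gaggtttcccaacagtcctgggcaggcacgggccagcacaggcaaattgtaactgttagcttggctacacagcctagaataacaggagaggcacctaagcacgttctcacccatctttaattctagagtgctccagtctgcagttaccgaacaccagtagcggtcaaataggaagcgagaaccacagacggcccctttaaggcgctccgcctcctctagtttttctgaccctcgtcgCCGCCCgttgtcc
Dpy30: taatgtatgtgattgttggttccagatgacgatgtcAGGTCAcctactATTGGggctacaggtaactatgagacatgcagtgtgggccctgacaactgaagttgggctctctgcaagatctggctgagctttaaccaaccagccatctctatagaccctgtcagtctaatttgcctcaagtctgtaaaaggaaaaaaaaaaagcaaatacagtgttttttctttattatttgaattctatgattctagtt
Men1: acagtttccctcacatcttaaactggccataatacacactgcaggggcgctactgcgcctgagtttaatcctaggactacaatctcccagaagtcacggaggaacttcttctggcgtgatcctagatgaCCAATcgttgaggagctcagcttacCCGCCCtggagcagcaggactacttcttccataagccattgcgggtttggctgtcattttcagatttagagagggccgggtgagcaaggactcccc
Kdm6a: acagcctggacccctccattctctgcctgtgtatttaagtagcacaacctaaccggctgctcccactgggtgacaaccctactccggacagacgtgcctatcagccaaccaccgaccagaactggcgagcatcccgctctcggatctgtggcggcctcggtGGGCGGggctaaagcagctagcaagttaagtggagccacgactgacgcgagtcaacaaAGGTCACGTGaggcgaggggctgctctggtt
Both strands were searched for the E-box (CACGTG), the ETS motif (CCGGAAG), the box spelled CCAAT, the SP motif (GGGCGG), the half-site of a retinoic acid response element (AGGTCA), and the NRF1 and YY1 motifs, the last a pair named without their letters. Wdr5 holds GGGCGG beginning 13 bases before the start. Men1 holds CCAAT at 121 and GGGCGG at 96 bases before it, and Dpy30 AGGTCA at 214 and CCAAT at 202. Kdm6a holds GGGCGG at 89 bases, and AGGTCA at 31 and CACGTG at 27, which share bases. Among 27025 such windows 32.9% hold GGGCGG, 34.5% CCAAT, 13.8% AGGTCA and 6.0% CACGTG. The other motifs searched, held by 0.8% (NRF1), 7.1% (ETS) and 0.2% (YY1) of the windows, have no match in these 4. Pairs of C and G (CpG) number 12 in Wdr5, 1 in Dpy30, 8 in Men1 and 15 in Kdm6a, beside a median of 6 over all windows. A window was listed for 7 of the 10 subunits.

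All 10 subunits changed from ESC to NPC in WT (edgeR quasi-likelihood test, Benjamini-Hochberg adjusted p under 0.05), 3 rising and 7 falling. Among all genes tested 79.5% passed, 39.1% higher and 40.4% lower. The subunits' median log2 change was -0.35, beside -0.04 over all genes, and their median absolute change was 0.83, beside 0.88. In dCD 3 rose and 7 fell (77.6% of genes passed, 38.7% higher and 39.0% lower), and in MLL2dTAG 4 rose and 6 fell (78.2% passed, 39.9% higher and 38.3% lower). All 4 core subunits fell in each genotype, with medians of -1.27 in WT, -1.29 in dCD and -1.22 in MLL2dTAG. In these bulk cultures, fewer cells of a type and less RNA per cell cannot be told apart.

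**Figure D2:**
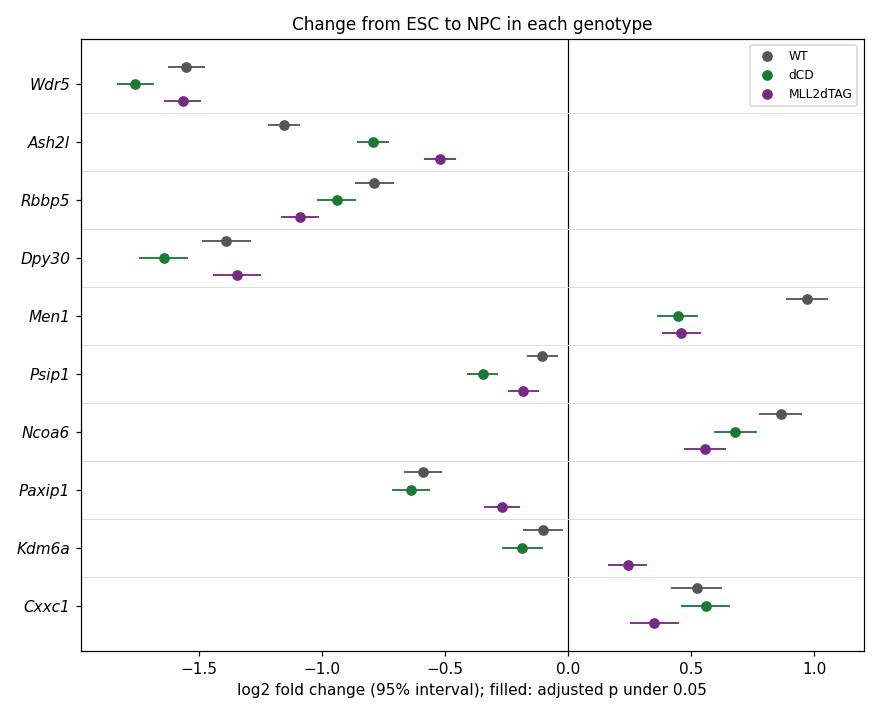
Change of each subunit mRNA from ESC to NPC in WT, dCD and MLL2dTAG, as log2 fold change (x axis) with 95% intervals, where filled points passed an adjusted p of 0.05. Wdr5, Ash2l, Rbbp5 and Dpy30 lie left of 0 in each genotype, and Men1, Ncoa6 and Cxxc1 right of 0.

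Against WT, the lines changed most subunits by small amounts. In ESC, dCD had 5 subunits higher and 3 lower (48.3% of all genes passed, 25.7% higher and 22.6% lower), and MLL2dTAG 6 higher and 2 lower (56.9% passed, 28.7% higher and 28.2% lower). In NPC, dCD had 3 higher and 5 lower (53.5% passed, 26.7% higher and 26.8% lower), and MLL2dTAG 6 higher and 0 lower (61.7% passed, 33.3% higher and 28.4% lower). The median absolute log2 change of the subunits was 0.13 and 0.11 in ESC of dCD and MLL2dTAG, beside 0.31 and 0.40 over all genes. It was 0.15 and 0.12 in NPC, beside 0.35 and 0.42. Genes with few counts are part of the all-gene medians and vary more by sampling. No medians for genes of like level were taken, so these values do not rank the subunits' stability. Of the 4 line comparisons, the highest absolute log2 change of a subunit was 0.63, for Men1 in ESC MLL2dTAG. Both lines were set against the same WT libraries, so their values are given side by side and not as separate support. Stage and any difference in dTAG-13 dosing cannot be told apart, as dose and duration are not given for ESC. An interaction term tested whether a line's difference from WT changed with stage. It passed for 7 subunits in dCD, 1 higher and 6 lower (42.9% of all genes, 20.0% higher and 22.9% lower), and for 7 in MLL2dTAG, 3 higher and 4 lower (49.0% of all genes, 26.4% higher and 22.6% lower). With 0 subunits lower in NPC MLL2dTAG by the edgeR test, 0 were also lower at an unadjusted p under 0.05 and 0 by DESeq2. Rbbp5 was called lower there when scaled by library totals only (-0.12) and with only the groups compared (-0.0875).

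**Figure D3:**
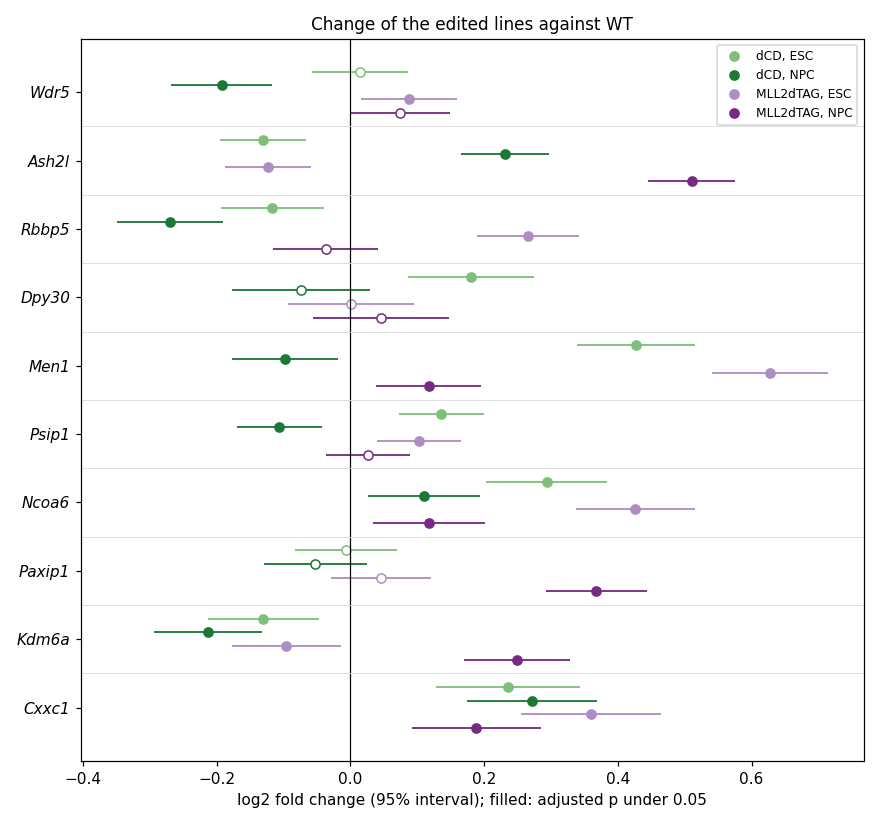
Change of each subunit mRNA in the dCD and MLL2dTAG lines against WT at both stages, as log2 fold change (x axis) with 95% intervals, where filled points passed an adjusted p of 0.05. Men1 in ESC MLL2dTAG lies farthest from 0 at 0.63, and Ash2l in NPC MLL2dTAG next at 0.51.

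Of the shared core, Wdr5, the WD-repeat protein that holds the complex on the catalytic subunit, fell to 0.341 times its ESC level in WT. ESC WT libraries 1 to 3 had 363, 333 and 361 CPM, ESC dCD 353, 354 and 361, and ESC MLL2dTAG 379, 378 and 367. In NPC the libraries had 119, 116 and 124 CPM in WT, 103, 104 and 109 in dCD and 125, 129 and 125 in MLL2dTAG. Every NPC library was below every ESC library. The log2 change from ESC to NPC was -1.55 (SE 0.04, adjusted p = 1.83e-29) in WT, -1.76 in dCD and -1.57 in MLL2dTAG. In NPC dCD Wdr5 was lower than in WT, by a log2 change of -0.19 (SE 0.04, adjusted p = 3.84e-05), with no overlap of libraries. The ESC difference of dCD was 0.01 with a 95% interval of -0.06 to 0.09. In ESC MLL2dTAG it was 0.09 higher (adjusted p = 0.032), which fell to 0.05 without ESC WT replicate 2 and then missed the threshold. It was also lost without ESC MLL2dTAG replicate 1 or 2 (0.08 for both), adjusted for GC content and length (0.07), and with only the groups compared (0.08). In NPC MLL2dTAG the difference was 0.07, with a 95% interval of -0.00097 to 0.15. Without NPC WT replicate 3, Wdr5 was called higher there. Its intronless paralog Wdr5b had 0.411 ± 0.218 CPM in ESC WT and 5.93 ± 0.404 in NPC WT.

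Ash2l (chr8:25815996-25847694, minus strand), whose SPRY domain binds RBBP5 and whose tail binds DPY30, also fell, but to a different level in each line. Its ESC libraries had 445, 428 and 437 CPM in WT, 385, 402 and 409 in dCD and 406, 400 and 397 in MLL2dTAG. In NPC they had 201, 196 and 192 in WT, 229, 236 and 225 in dCD and 281, 279 and 278 in MLL2dTAG. Both lines lay below WT in ESC and above it in NPC, with no overlap of libraries in any of the 4 comparisons. In ESC the log2 difference from WT was -0.13 (SE 0.03, adjusted p = 0.000808) in dCD and -0.12 (SE 0.03, adjusted p = 0.0011) in MLL2dTAG. With no filter on low counts the MLL2dTAG value was -0.06 and missed the threshold. In NPC it was 0.23 (SE 0.03, adjusted p = 1.34e-07) in dCD and 0.51 (SE 0.03, adjusted p = 3.64e-16) in MLL2dTAG. The fall from ESC to NPC was thus -1.15 on the log2 scale in WT, -0.79 in dCD and -0.52 in MLL2dTAG. The test of the difference between these falls passed for both lines, at 0.36 (SE 0.04, adjusted p = 2.9e-08) for dCD and 0.63 (SE 0.04, adjusted p = 2.81e-14) for MLL2dTAG.

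Rbbp5 (chr1:132477365-132505659, plus strand) encodes the core subunit that contacts both ASH2L and WDR5. ESC libraries had 142, 145 and 141 CPM in WT, 134, 130 and 131 in dCD and 171, 167 and 176 in MLL2dTAG. NPC libraries had 84.5, 80.0 and 83.5 CPM in WT, 67.9, 71.2 and 66.6 in dCD and 83.4, 78.2 and 80.3 in MLL2dTAG. MLL2dTAG stood above the other lines in ESC, and dCD below the other lines at both stages. Rbbp5 was higher in ESC MLL2dTAG than in WT by 0.27 (SE 0.04, adjusted p = 1.49e-07), while in NPC the difference was -0.04 (95% interval -0.12 to 0.04). In dCD it was lower by a log2 change of -0.12 (adjusted p = 0.0108) in ESC and -0.27 (SE 0.04, adjusted p = 3.18e-07) in NPC. The ESC call was lost without ESC dCD replicate 2 (-0.10) or with no filter on low counts. Rbbp5 fell from ESC to NPC by a log2 change of -0.79 in WT, -0.94 in dCD and -1.09 in MLL2dTAG.

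Dpy30, the small subunit that binds ASH2L, fell by a log2 change of -1.39 (SE 0.05, adjusted p = 3.56e-24) in WT, -1.64 in dCD and -1.35 in MLL2dTAG. ESC libraries had 147, 122 and 142 CPM in WT, 152, 153 and 159 in dCD and 137, 140 and 134 in MLL2dTAG. NPC libraries lay between 48.0 and 55.4 CPM in all 3 genotypes. The lowest ESC WT value, 122, was that of replicate 2. In ESC dCD Dpy30 was higher than in WT by 0.18 (SE 0.05, adjusted p = 0.00151), and by 0.10 without ESC WT replicate 2, which kept the call (adjusted p = 0.0273). No other line comparison with WT passed for Dpy30, with differences of 0.00 (95% interval -0.09 to 0.10) in ESC MLL2dTAG, -0.07 (-0.18 to 0.03) in NPC dCD and 0.05 (-0.06 to 0.15) in NPC MLL2dTAG.

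**Figure D4:**
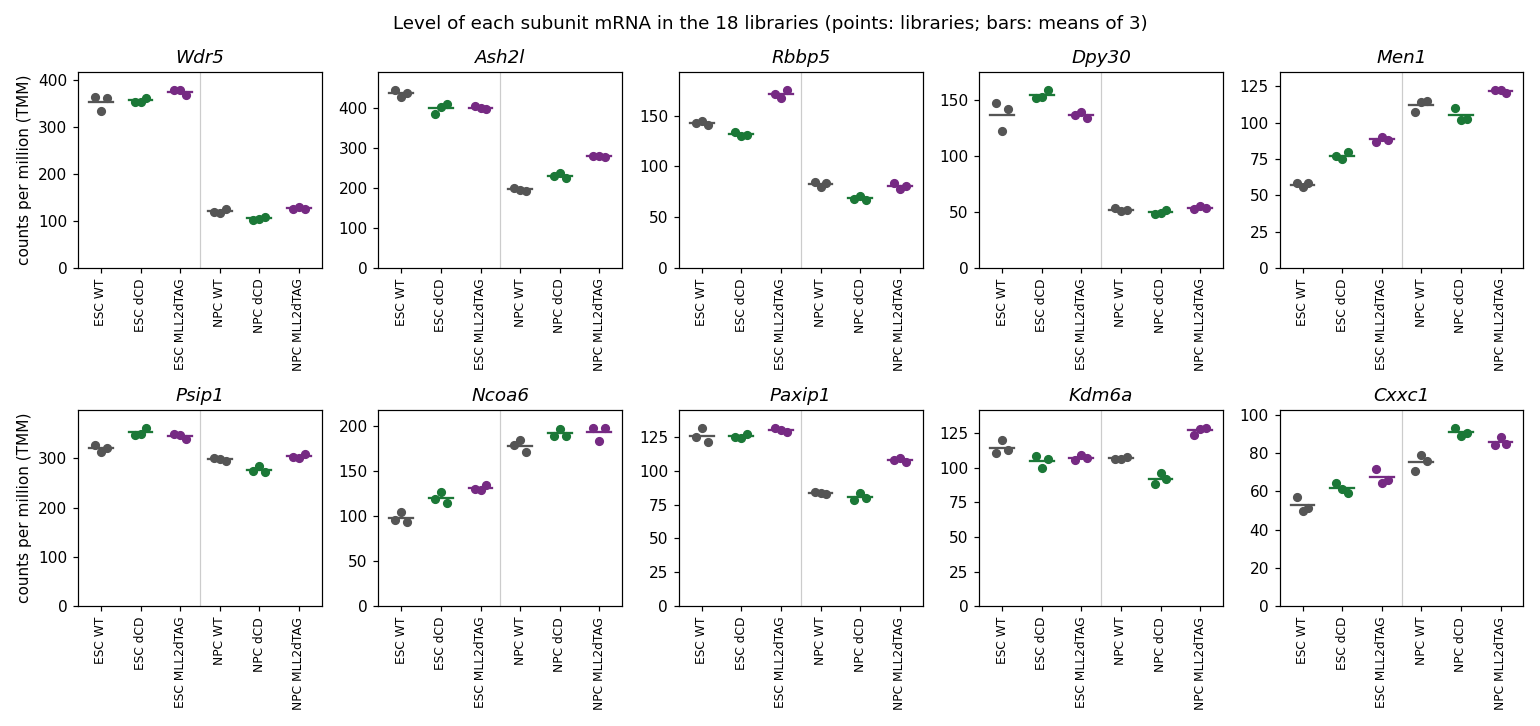
CPM of the 10 subunit mRNAs (y axes from 0) in each of the 18 libraries by group, with points for libraries and horizontal bars for means of 3. Wdr5, Ash2l, Rbbp5 and Dpy30 drop from ESC to NPC in each genotype, while Men1 is higher in NPC WT at 108 to 115 CPM than in ESC WT at 55.5 to 58.2.

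Among the MLL1/2 partners, Men1 encodes menin, which tethers MLL1 and MLL2 to chromatin together with PSIP1. It rose 1.96-fold in WT and had the highest change of a subunit in the lines. ESC libraries had 58.2, 55.5 and 58.2 CPM in WT, 76.8, 74.7 and 79.5 in dCD and 86.9, 90.3 and 88.2 in MLL2dTAG. In NPC there were 108, 114 and 115 CPM in WT, 110, 102 and 103 in dCD and 123, 122 and 120 in MLL2dTAG. The 3 genotypes did not overlap in ESC, whereas in NPC dCD and WT did. In ESC Men1 was higher than in WT by 0.43 (SE 0.04, adjusted p = 3.25e-10) in dCD and by 0.63 (SE 0.04, adjusted p = 4.96e-15) in MLL2dTAG. The NPC differences were smaller, -0.10 (adjusted p = 0.0346) in dCD and 0.12 (adjusted p = 0.00905) in MLL2dTAG. Neither was stable: the first was lost under 8 of 15 alternatives, leaving out NPC WT replicate 2 or 3 or NPC dCD replicate 2 or 3 among them (-0.09 to -0.08), and the second became 0.03 when scaled by library totals only. The second was also lost without NPC WT replicate 1 (0.09). The rise from ESC to NPC was 0.97 (SE 0.04, adjusted p = 1.58e-21) in WT, 0.45 in dCD and 0.46 in MLL2dTAG. The difference in rise passed for dCD at -0.53 (SE 0.06, adjusted p = 2.73e-09) and for MLL2dTAG at -0.51 (SE 0.06, adjusted p = 2.22e-09).

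Psip1 (chr4:83455680-83486459, minus strand) encodes LEDGF, a reader of methylated lysine 36 of histone H3. With Kdm6a it had the smallest stage changes in WT. ESC libraries had 328, 314 and 322 CPM in WT, 347, 349 and 362 in dCD and 349, 347 and 339 in MLL2dTAG. NPC libraries had 301, 299 and 295 CPM in WT, 275, 284 and 272 in dCD and 302, 301 and 309 in MLL2dTAG. Both lines lay above WT in ESC, dCD lay below it in NPC, and MLL2dTAG overlapped it there. The log2 differences from WT were 0.14 (adjusted p = 0.000442) in ESC dCD, 0.10 (adjusted p = 0.00495) in ESC MLL2dTAG, -0.11 (adjusted p = 0.004) in NPC dCD and 0.03 (95% interval -0.04 to 0.09) in NPC MLL2dTAG. The ESC dCD call was lost with the replicate block and GC and length offsets (0.0662), the ESC MLL2dTAG call with only the groups compared (0.0958), and the NPC dCD call with no filter on low counts (-0.0862). In NPC MLL2dTAG, Psip1 was called higher with GC and length offsets. The change from ESC to NPC was -0.35 in dCD (SE 0.03, adjusted p = 2.07e-12) and -0.18 in MLL2dTAG. In WT it was -0.11 (adjusted p = 0.00256), but -0.02 when scaled by library totals only, and the call was lost. Psip1 shares 483 exonic bases (9.5%) with Snapc3 on the opposite strand, and the sources used here do not give the strand setting of the counting. The paralog Hdgfl2, listed as Hdgfrp2, had 153 ± 6.44 CPM in ESC WT and 114 ± 4.44 in NPC WT.

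Of the MLL3/4 partners, Ncoa6 (chr2:155390656-155473894, minus strand) encodes a coactivator of nuclear receptors, and rose in all 3 genotypes. ESC libraries had 95.8, 104 and 93.4 CPM in WT, 119, 127 and 115 in dCD and 130, 130 and 134 in MLL2dTAG. NPC libraries had 179, 185 and 171 CPM in WT, 190, 197 and 190 in dCD and 198, 184 and 198 in MLL2dTAG. In ESC the 3 genotypes did not overlap, and WT was lowest. There Ncoa6 was higher than in WT by 0.29 (SE 0.04, adjusted p = 9.89e-07) in dCD and by 0.43 (SE 0.04, adjusted p = 1.97e-10) in MLL2dTAG. NPC differences were 0.11 (adjusted p = 0.0241) in dCD and 0.12 (adjusted p = 0.0133) in MLL2dTAG, and were lost under 5 and 6 of 15 alternatives, the second at 0.04 with scaling by library totals only. The NPC dCD call was lost without NPC WT replicate 1 (0.11) or 3 (0.08) or NPC dCD replicate 2 (0.09), and the MLL2dTAG call without NPC WT replicate 3 (0.09) or NPC MLL2dTAG replicate 1 (0.10) or 3 (0.10). The rise from ESC to NPC was 0.86 (SE 0.04, adjusted p = 1.47e-19) in WT, 0.68 in dCD and 0.56 in MLL2dTAG. Adjusted for GC content and length, these rises were 0.38, 0.16 and 0.07, the last no longer passing.

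Paxip1 (chr5:27740080-27791691, minus strand) encodes PTIP, a BRCT-domain protein that also acts in DNA damage responses. ESC libraries had 125, 132 and 121 CPM in WT, 125, 124 and 127 in dCD and 132, 130 and 128 in MLL2dTAG. NPC libraries had 84.3, 83.7 and 82.9 CPM in WT, 78.4, 83.5 and 80.0 in dCD and 108, 109 and 106 in MLL2dTAG. In ESC the genotypes overlapped WT, and in NPC the MLL2dTAG libraries stood above all others. Paxip1 was higher in NPC MLL2dTAG than in WT by 0.37 (SE 0.04, adjusted p = 9.74e-11). In ESC that difference was 0.05 (95% interval -0.03 to 0.12), and in dCD the differences were -0.01 (-0.08 to 0.07) in ESC and -0.05 (-0.13 to 0.02) in NPC. Adjusted for GC content and length, the NPC dCD difference passed as lower. Paxip1 fell from ESC to NPC by a log2 change of -0.59 in WT and -0.64 in dCD but -0.27 in MLL2dTAG, and the test of that difference gave 0.32 (SE 0.05, adjusted p = 3.19e-06). Adjusted for GC content and length, the falls were -0.98, -1.04 and -0.65.

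Kdm6a, on the X chromosome, encodes UTX and was the subunit whose stage change differed in sign between lines. ESC libraries had 111, 120 and 113 CPM in WT, 109, 100 and 106 in dCD and 106, 109 and 107 in MLL2dTAG. NPC libraries had 106, 106 and 108 CPM in WT, 88.5, 96.2 and 92.1 in dCD and 124, 128 and 129 in MLL2dTAG. In NPC the 3 genotypes did not overlap, with MLL2dTAG highest and dCD lowest. Kdm6a was higher in NPC MLL2dTAG than in WT by 0.25 (SE 0.04, adjusted p = 9.79e-07). In NPC dCD it was lower, by a log2 change of -0.21 (SE 0.04, adjusted p = 2.4e-05). The ESC differences were -0.13 (adjusted p = 0.00822) in dCD and -0.10 (adjusted p = 0.0421) in MLL2dTAG. The first was lost without ESC WT replicate 2 (-0.09) or ESC dCD replicate 2 (-0.10), and the second under 11 of 15 alternatives, with -0.06 without ESC WT replicate 2 and -0.11 to -0.08 without ESC MLL2dTAG replicate 1, 2 or 3. From ESC to NPC the log2 change was -0.10 (adjusted p = 0.0192) in WT, -0.19 in dCD and 0.24 in MLL2dTAG. The WT call was lost without ESC WT replicate 2 (-0.06), NPC WT replicate 1 (-0.09) or NPC WT replicate 2 (-0.10). It was also lost with library totals only (-0.0197), with no filter on low counts (-0.001) and with only the groups compared (-0.0694), and with no filter the dCD call was lost too (-0.0845). Adjusted for GC content and length the 3 values were -0.60, -0.68 and -0.22, so that the sign in MLL2dTAG turned. The difference in stage change between MLL2dTAG and WT was 0.35 (SE 0.06, adjusted p = 3.09e-06).

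The Y-linked paralog Uty differed between the same lines. ESC held 41.6 ± 0.657 CPM of Uty in WT (SD, n = 3) and 38.3 ± 1.48 in dCD, and NPC 48.5 ± 1.15 and 44.9 ± 1.23. The MLL2dTAG line had 1.57 ± 0.130 CPM in ESC, from 155 counts in all, and in NPC 2, 0 and 2 counts. Those NPC libraries lie at or below 3 counts, the limit that a count of 0 allows, which is 0.0652 to 0.154 CPM across the 18 libraries. Of 6 Y-linked partners of X-linked genes 5 were tested, and 5 were lower in MLL2dTAG than in WT at both stages. Their summed level was 153 to 160 CPM in ESC WT, 165 to 168 in ESC dCD and 7.28 to 8.82 in ESC MLL2dTAG. In NPC it was 145 to 151, 154 to 161 and 0.356 to 0.600 CPM, and Usp9y, Zfy1 and Zfy2 were at 0 in MLL2dTAG at both stages. The 5 X-linked partners Kdm5c, Eif2s3x, Ddx3x, Usp9x and Zfx were all higher in NPC MLL2dTAG than in WT, with a median of 0.34, and 3 of them were higher in ESC MLL2dTAG, where the other 2 did not pass. Of all genes tested 33.3% were higher and 28.4% lower in NPC MLL2dTAG, with a median log2 change of 0.03. In ESC MLL2dTAG 28.7% were higher and 28.2% lower. In dCD 2 of the 5 X-linked partners were higher and 2 lower in ESC, and 1 higher and 1 lower in NPC. The part of the Y-linked genes' low level in the Kdm6a result was not tested. The autosomal paralog Kdm6b rose from 49.5 ± 6.30 CPM in ESC WT to 170 ± 7.82 in NPC WT.

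**Figure D5:**
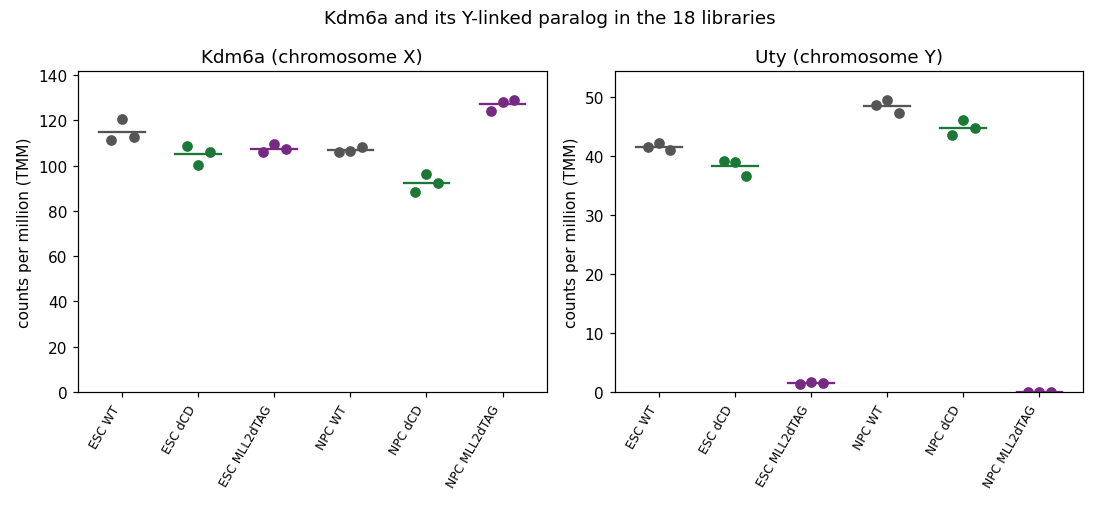
CPM of Kdm6a (left) and Uty (right), y axes from 0, in the 18 libraries by group, with points for libraries and bars for means of 3. Kdm6a is 124 to 129 in NPC MLL2dTAG and 106 to 108 in NPC WT, and Uty is near 0 in MLL2dTAG at both stages.

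Cxxc1, the partner of the SETD1 enzymes, is on chromosome 18 and was higher than WT in both lines at both stages. ESC libraries had 57.1, 49.6 and 51.2 CPM in WT, 64.5, 61.5 and 59.2 in dCD and 71.5, 64.6 and 66.0 in MLL2dTAG. NPC libraries had 70.7, 79.0 and 76.0 CPM in WT, 93.2, 88.8 and 90.7 in dCD and 84.1, 88.2 and 84.8 in MLL2dTAG. WT was lowest at each stage, and its libraries overlapped neither line. The log2 difference from WT was 0.24 (SE 0.05, adjusted p = 0.000325) in ESC dCD and 0.36 (SE 0.05, adjusted p = 2.25e-07) in ESC MLL2dTAG. It was 0.27 (SE 0.05, adjusted p = 8.41e-06) in NPC dCD and 0.19 (SE 0.05, adjusted p = 0.000823) in NPC MLL2dTAG, the last 0.11 with scaling by library totals only. From ESC to NPC Cxxc1 rose by 0.52 (SE 0.05, adjusted p = 1.72e-11) in WT, 0.56 in dCD and 0.35 in MLL2dTAG.

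The edited lines were also compared directly. In ESC MLL2dTAG had 4 subunits higher than dCD and 1 lower (47.2% of all genes passed, 23.4% higher and 23.7% lower). In NPC it had 8 higher and 0 lower (55.9% passed, 31.6% higher and 24.3% lower), with a median log2 difference of 0.22 beside 0.05 over all genes. For 0 lower, edgeR at an unadjusted p under 0.05 and DESeq2 also gave 0, but Cxxc1 was called lower with library totals only (-0.17), with no filter on low counts (-0.14) and with only the groups compared (-0.14). The NPC difference was highest for Kdm6a at 0.46 (SE 0.04, adjusted p = 2.04e-12) and Paxip1 at 0.42 (SE 0.04, adjusted p = 5.34e-12). It was 0.28 for Ash2l, 0.27 for Wdr5, 0.23 for Rbbp5, 0.21 for Men1, 0.13 for Psip1 and 0.12 for Dpy30. Psip1's was 0.05 and no longer passed with scaling by library totals only, and Dpy30's (adjusted p = 0.0433) was lost under 11 of 15 alternatives, without NPC dCD replicate 1 or 2 or NPC MLL2dTAG replicate 2 or 3 among them (0.10 to 0.12). Ncoa6 differed by 0.01 (95% interval -0.08 to 0.09) and Cxxc1 by -0.08 (-0.18 to 0.01). In ESC Rbbp5 was higher in MLL2dTAG by 0.38 (SE 0.04, adjusted p = 1.06e-10), Men1 by 0.20, Ncoa6 by 0.13 and Cxxc1 by 0.12, and Dpy30 was lower at -0.18. The ESC count fell from 5 to 3 without ESC dCD replicate 3 or without ESC MLL2dTAG replicate 3, the calls of Ncoa6 (0.10 and 0.11) and Cxxc1 (0.09 and 0.13) being lost. Cxxc1 was lost without ESC dCD replicate 2 (0.12) or ESC MLL2dTAG replicate 1 (0.08) as well. Adjusted for GC content and length, Men1 (0.06) and Dpy30 (-0.06) no longer passed in ESC and Cxxc1 was at 0.00, whereas Ash2l (0.0760), Psip1 (0.0701) and Kdm6a (0.14) were called higher in MLL2dTAG. Wdr5 was called higher in ESC MLL2dTAG than in dCD with no filter (0.11) and with only the groups compared (0.0582).

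Of 12 other genes of the complexes, the catalytic subunits and further partners, 11 were tested. Pagr1a, a partner of PTIP, was not: it had at most 3 counts in a library, and in GENCODE M21 98.7% of its exonic bases are shared with Gm42742 on the same strand. The shares of all genes called in each comparison, given above, apply to the counts here too. From ESC to NPC 5 of the 11 rose and 5 fell in WT, 5 and 5 in dCD, and 7 and 3 in MLL2dTAG. By DESeq2 the counts were 5 and 3 in WT, 5 and 5 in dCD, and 6 and 3 in MLL2dTAG. Setd1b, a catalytic subunit that works with CXXC1, rose most in WT, by 2.14 (SE 0.06, adjusted p = 3.46e-26), from 17.7 ± 1.61 to 78.4 ± 2.75 CPM (SD, n = 3). Wdr82, another SETD1 partner, fell most in WT at -0.43. The extremes in dCD were Hcfc2 at 1.22 and Hcfc1 at -0.53, genes of host cell factors, and in MLL2dTAG Setd1b at 1.07 and Bod1l at -0.34. In ESC 2 were higher and 0 lower in dCD, with Setd1b at 1.26 and Bod1 at 0.28, and 6 were higher and 0 lower in MLL2dTAG, from Setd1b at 1.27 to Wdr82 at 0.14. For both counts of 0 lower, edgeR at an unadjusted p under 0.05 and DESeq2 also gave 0. In NPC dCD 1 was higher (Wdr82 at 0.09) and 2 lower, down to Bod1l at -0.15. In NPC MLL2dTAG 5 were higher and 1 lower, Kmt2c at 0.88 (SE 0.05, adjusted p = 4.59e-17) and Bod1l at -0.14. DESeq2 gave 1 higher and 1 lower in NPC dCD, and 4 higher and 1 lower in NPC MLL2dTAG. Of the enzymes that the lines target, Kmt2c had 175 ± 3.89 CPM in NPC WT and 322 ± 19.6 in NPC MLL2dTAG, and Kmt2d 241 ± 10.4 and 264 ± 8.65. In ESC Kmt2c had 193 ± 23.3 CPM in WT and 280 ± 5.46 in MLL2dTAG, and Kmt2d 185 ± 41.0 and 228 ± 6.88. Kmt2b had 183 ± 8.58 CPM in NPC WT and 197 ± 6.37 in NPC MLL2dTAG. Directly against dCD, MLL2dTAG had 4 of the 11 genes higher and 1 lower in ESC, from Hcfc2 at 0.57 to Hcfc1 at -0.13. In NPC 6 were higher, from Kmt2c at 0.96 to Hcfc1 at 0.09 (edgeR, adjusted p = 0.0488). With DESeq2 3 were higher and 1 lower in ESC, and 5 higher in NPC. The interaction with stage passed for 4 genes in dCD, all lower, from Bod1l at -0.16 to Setd1b at -1.15, and for 6 in MLL2dTAG, 2 higher and 4 lower, from Kmt2c at 0.34 to Setd1b at -1.07. In dCD neither Kmt2c nor Kmt2d passed against WT, with Kmt2c at 0.04 in ESC and -0.08 in NPC and Kmt2d at 0.07 and 0.05. The ESC WT libraries spread from 177 to 219 CPM for Kmt2c and from 151 to 231 for Kmt2d. Small differences in ESC could therefore be missed.

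For each subunit the gene outside the set with the closest course over the 18 libraries was found, by the Pearson correlation of log2 CPM, taking genes that averaged 5 CPM or more. The libraries share 2 stages, which sets much of these values, and they are given as a description. For Wdr5 it was Got1, a cytosolic aspartate aminotransferase, at 0.997. For Dpy30 it was Mrpl15, a mitochondrial ribosomal protein, at 0.998, and for Ash2l Tdgf1, a Nodal coreceptor, at 0.995. Correlation does not measure the size of a change. From ESC WT to NPC WT, Tdgf1 went from 997 to 1.51 CPM and Ash2l from 437 to 196. Rbbp5 lay closest to Extl1 (0.990), Men1 to Id1 (0.993), Psip1 to Aatf (0.984) and Ncoa6 to Pcdhgb4 (0.994). Paxip1 lay closest to Pnldc1 (0.995) and Cxxc1 to Hspa13 (0.973). For Kdm6a the closest was Nid2, a basement membrane protein, at 0.939, the lowest of the 10.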

How the data were processed

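Poly(A) RNA was sequenced from 18 libraries in 6 groups, prepared with a TruSeq Stranded mRNA kit per the labels' protocols. The authors deposited whole-number read counts per gene symbol, and HTSeq is the one tool listed for these libraries per the submitters' processing notes. Aligner, genome build and strand setting of this table are not given in the sources used here. Counts of 1 to 10 were even in 60.8 to 66.5% of cases, beside 48.9 to 50.4% of counts over 1000, and the notes do not say whether reads or read pairs were counted. The 18 columns of per-sample values that matched no label uniquely (6 in this table, 12 in another) and the 18 samples of the other 8 groups were not analysed here.

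Counts were scaled by TMM (factors 0.967 to 1.05), filtered with filterByExpr and fitted with edgeR 4.0.16 in R 4.3.3, one mean per group, with Benjamini-Hochberg adjustment over 20511 genes, 12 residual degrees of freedom and a biological coefficient of variation of 4.01%. Tests are two-sided with a threshold of 0.05. Tests and intervals used edgeR's total degrees of freedom, the residual ones plus those gained by sharing spread between genes. CPM are TMM-scaled. A difference between stage changes was an interaction contrast. The steps were run on simulated counts with the same spread for all genes and groups. That run checks the code and does not give error rates at the uneven spread of these libraries. Alternatives were DESeq2 1.42.0 and its size factors, library totals, no filter, only the groups compared, replicate blocks, offsets for GC content and length (known for 97.2% of genes tested and 10 of 10 subunits), halved counts and each library left out. Gene positions and lengths come from GENCODE M21, and promoter windows from RefSeq. The subunits, the further lists and the rule for named genes were chosen with earlier results of these data known. By that rule all subunits, the targeted enzymes, paralogs, X-Y pairs, the closest gene by correlation, and the highest and lowest called of the other complex genes were named.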

Additional observations from a re-analysis of the deposited data

Results flagged for a closer look

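For 7 subunits the dCD line's difference from WT was not the same in NPC as in ESC, by edgeR's interaction test (Benjamini-Hochberg adjusted). Among all genes 42.9% passed that test, 20.0% higher and 22.9% lower. Expressed as the NPC minus the ESC difference on the log2 scale, it was 0.36 (adjusted p = 2.9e-08) for Ash2l and -0.53 (adjusted p = 2.73e-09) for Men1. It was -0.25 (adjusted p = 0.00286) for Dpy30, -0.24 (adjusted p = 2.37e-05) for Psip1, -0.21 (adjusted p = 0.00118) for Wdr5, -0.18 (adjusted p = 0.0133) for Ncoa6 and -0.15 (adjusted p = 0.022) for Rbbp5. The Ncoa6 value lost its call without ESC WT replicate 3 or ESC dCD replicate 2, at -0.15 for both. The Rbbp5 value lost it without ESC dCD replicate 1 (-0.14), NPC WT replicate 1 (-0.14) or NPC dCD replicate 3 (-0.13).

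The MLL2dTAG line's difference from WT also varied between stages for 7 subunits, while 49.0% of all genes passed (26.4% higher and 22.6% lower). It was 0.63 (adjusted p = 2.81e-14) for Ash2l, 0.35 (adjusted p = 3.09e-06) for Kdm6a and 0.32 (adjusted p = 3.19e-06) for Paxip1. Men1 had -0.51 (adjusted p = 2.22e-09), Ncoa6 -0.31 (adjusted p = 4.87e-05), Rbbp5 -0.30 (adjusted p = 1.21e-05) and Cxxc1 -0.17 (adjusted p = 0.0412). The Cxxc1 value lost its call under 10 of 21 alternatives, among them leaving out ESC WT replicate 2 or 3, ESC MLL2dTAG replicate 1 or 3, NPC WT replicate 2 or 3, or NPC MLL2dTAG replicate 1 or 3 (-0.18 to -0.13). Both families use the same WT libraries. In both, stage and any difference in dTAG-13 dosing cannot be told apart.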

How the results depend on the processing

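Of 110 subunit values (10 subunits in 11 comparisons), those with the same direction and side of the threshold numbered 107 with DESeq2's size factors, 107 with DESeq2, 100 with library totals only, 93 with no filter, 100 with only the groups compared, 110 with halved counts and 94 with GC and length offsets. Of 780 values with 1 library left out, 732 did, 47 lost the call, 1 gained it and 0 turned. With only the groups compared, MLL2dTAG against WT in ESC called 5 subunits in place of 8. That setting also redid the filter and the scaling, with 17675 genes tested, and the cause of the drop was not tested. Leaving out 1 library, MLL2dTAG against dCD in ESC called 3 to 5. With the median in place of the longest transcript length, the ratio of the highest to the lowest subunit per length was 17.3 in place of 12.6 in ESC WT and 7.11 in place of 6.42 in NPC WT, by the choice of length alone. No scaling moved the median of all genes by over 0.1, but with library totals only the genes called between MLL2dTAG and dCD in NPC were 4965 higher and 5986 lower, in place of 6487 and 4986, and with no filter those of the MLL2dTAG interaction were 4225 and 5416, in place of 5417 and 4626. Offsets for GC content and length turned 12 values, given here with, after a slash, the value when the replicate block was added. Against ESC, NPC were at -0.22 / -0.22 for Kdm6a, -0.36 / -0.36 for Kmt2c and -0.16 / -0.16 for Kmt2d in MLL2dTAG, at -0.28 / -0.28 for Kmt2d and -0.0757 / -0.0758 for Uty in dCD, and at -0.0332 / -0.0321 for Kmt2d and -0.0932 / -0.0931 for Uty in WT. MLL2dTAG against dCD in ESC was 0.0701 / 0.0700 for Psip1, -0.00062 / -0.00022 for Cxxc1, -0.14 / -0.14 for Kmt2b and -0.17 / -0.17 for Setd1b, and dCD against WT in ESC 0.0820 / 0.0821 for Hdgfl2. The cause was not tested. The replicate block alone changed none of the 110 subunit calls, with 8, 8, 8 and 6 subunits called in the line comparisons with WT. Same-numbered libraries did not deviate together (r -0.0278 to 0.032, median -0.00168, over 45 pairs, 0 over 0.1), and 2 of 18 libraries correlated best with their own number, so the numbers were not taken as pairs. Depth sets a limit for Uty in NPC MLL2dTAG, with 4 counts in 3 libraries, and not for the subunits.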
